A study of Mus musculus with 18 samples.

Results

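The G2/M and mitosis genes described here are 39 mouse genes of the last part of the cell cycle, from the cyclins that start mitosis to the proteins that separate the daughter cells. They were taken by name from a fixed list and not by their measured values, but the list was chosen with earlier results of these data known. All 39 were found among the 55414 genes of the deposited table. All 39 were detected in each of the 18 libraries and passed the filter on low counts in every comparison. RNA came from cultures of small intestinal epithelium of wild-type C57BL/6J mice, 3 cultures in each of 6 groups, which the series calls biological replicates; the labels used here give no age. All cultures were harvested on day 6. Organoids are small epithelial structures grown in a gel. MG_5FU held crypt-derived organoids in Matrigel, a basement membrane extract, in ENR medium (EGF, Noggin and R-spondin 1) with 40 µM 5-fluorouracil (5-FU) from day 4, and MG_Control held the same cultures without 5-FU. In COL_5FU the gel was collagen type I and the medium ENRW, again for organoids from crypts and with 40 µM 5-FU from day 4, and COL_Control was its counterpart without the drug. VIL held organoids grown from villi scraped from the 3 cm of intestine below the pylorus, in collagen type I and 25% cWRNE medium, without 5-FU. COL_cWRNE had organoids from crypts in that gel and medium, also without 5-FU. The Matrigel and collagen cultures with and without 5-FU thus differed in medium as well as in gel, and the effects of gel and medium cannot be told apart in a comparison of them.

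Cells enter mitosis when cyclin B bound to the kinase CDK1 becomes active, and they leave it when the anaphase-promoting complex (APC/C), a ubiquitin ligase, marks cyclin B and other proteins for destruction. The spindle checkpoint holds the APC/C back until every chromosome is attached to the spindle. Most genes of this kind are transcribed mainly in G2 and mitosis, when the MYB-MuvB complex and FOXM1 act at their promoters, and are repressed in resting cells by the related DREAM complex, which p53 can engage through p21, the product of Cdkn1a. In the small intestine they mark the dividing cells of the crypt, whereas cells on the villus have stopped dividing. 5-FU is a pyrimidine analog that blocks the synthesis of thymidylate and is built into RNA and DNA.

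Short promoter motifs are known elements of that control. The cell cycle genes homology region (CHR) is the element that DREAM and MYB-MuvB contact. It was searched as TTTGAA and, in a variant form, as TTTAAA. The element of the factor NF-Y was searched as CCAAT. Both were searched on both strands in RefSeq promoter windows (build GRCm38.p6) that run from 250 bases before the start of a transcript to 50 bases after it. Windows were found for 32 of the 39 genes, and a gene was counted where any of its windows held the motif. A CHR-type motif of either form was present in 28 of the 32 genes, and in 27.6% of all 32851 windows of this length. CCAAT was present in 25 of the 32 genes and in 37.4% of all windows, and both kinds of motif were present in 24 of the 32 genes and in 10.7% of all windows. These matches describe letters in a window and are not binding sites.

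The 250 bases before the start are shown for Mki67, Top2a, Ccnb1 and Cdk1, the first genes with a CHR-type motif among those followed most closely below. Ckap2 and Ube2c are shown as well, chosen after their values were seen, because they were called higher with 5-FU. Capitals mark these motifs on either strand, so that a CHR-type motif can also stand as TTCAAA and the NF-Y element as its reverse, ATTGG. In Ube2c a forward NF-Y element and a reverse one overlap once. Each is written 5′ to 3′ on the strand of its gene. Mki67 lies at chr7:135716380-135716629 (minus strand), Top2a at chr11:99024190-99024439 (minus), Ccnb1 at chr13:100786487-100786736 (minus), Cdk1 at chr10:69352913-69353162 (minus), Ckap2 at chr8:22185820-22186069 (minus) and Ube2c at chr2:164769679-164769928 (plus), all in GRCm38.p6.
Mki67: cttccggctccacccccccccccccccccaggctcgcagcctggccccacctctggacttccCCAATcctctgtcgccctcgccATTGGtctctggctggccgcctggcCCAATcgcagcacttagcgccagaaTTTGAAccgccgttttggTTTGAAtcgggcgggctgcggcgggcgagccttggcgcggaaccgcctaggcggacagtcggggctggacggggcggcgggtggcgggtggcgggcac
Top2a: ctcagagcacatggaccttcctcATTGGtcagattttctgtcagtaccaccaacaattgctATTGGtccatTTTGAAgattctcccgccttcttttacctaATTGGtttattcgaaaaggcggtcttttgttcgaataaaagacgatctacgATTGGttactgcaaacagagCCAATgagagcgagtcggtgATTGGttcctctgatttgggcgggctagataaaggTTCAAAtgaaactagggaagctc
Ccnb1: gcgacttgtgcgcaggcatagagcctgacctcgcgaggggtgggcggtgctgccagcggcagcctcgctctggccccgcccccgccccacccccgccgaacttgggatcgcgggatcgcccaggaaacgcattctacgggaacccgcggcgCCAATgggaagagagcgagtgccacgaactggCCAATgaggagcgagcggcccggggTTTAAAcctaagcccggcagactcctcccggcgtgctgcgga
Cdk1: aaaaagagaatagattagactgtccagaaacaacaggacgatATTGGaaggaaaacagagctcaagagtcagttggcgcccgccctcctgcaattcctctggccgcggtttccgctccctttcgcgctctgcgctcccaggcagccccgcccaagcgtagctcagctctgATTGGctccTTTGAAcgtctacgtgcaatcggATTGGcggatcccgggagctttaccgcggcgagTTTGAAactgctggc
Ckap2: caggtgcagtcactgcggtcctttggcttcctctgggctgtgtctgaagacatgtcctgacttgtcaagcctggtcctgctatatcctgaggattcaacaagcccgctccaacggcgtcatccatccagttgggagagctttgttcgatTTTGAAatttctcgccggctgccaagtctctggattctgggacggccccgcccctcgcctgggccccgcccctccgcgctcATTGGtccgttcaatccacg
Ube2c: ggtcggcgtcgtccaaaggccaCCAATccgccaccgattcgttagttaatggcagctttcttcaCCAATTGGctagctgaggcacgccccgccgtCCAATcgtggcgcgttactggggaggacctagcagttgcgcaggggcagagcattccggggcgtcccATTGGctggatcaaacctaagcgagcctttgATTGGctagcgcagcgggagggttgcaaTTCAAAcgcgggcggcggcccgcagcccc

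In Mki67 the CHR-type motifs begin 116 and 98 bases before the start, and in Cdk1 71 and 15 bases before it. Ccnb1 holds TTTAAA 42 bases before the start and CCAAT 99 and 67 bases before it. Both genes that were called higher with 5-FU in at least 1 gel hold the same kinds of motif: Ckap2 has a CHR-type motif 101 bases and a reverse CCAAT 20 bases before the start, and Ube2c has a reverse CHR-type motif 29 bases before it beside 6 CCAAT matches.

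Library totals were 22.3 to 34.5 M estimated counts. Levels are given as counts per M with TMM scaling (CPM), where differences between libraries in composition are scaled out, and levels are compared between genes only as TPM, which also accounts for gene length. The summed CPM of 8 epithelial markers, Epcam, Cdh1 and Vil1 among them, was 9546 to 28248 in the 18 libraries, with none of the 8 at 0 in a whole group. Replicate 2 of each group had Y-linked transcripts and nearly no Xist, and the other libraries had Xist. COL_Control 3 stood apart, with 177 CPM of Xist beside 26.7 CPM summed over the Y-linked genes (738 counts), so that the counts of called genes in comparisons that use it are also given without it. All VIL libraries carried transcripts of other cell types, with the least in VIL 1, given with the results on villi.

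The 39 genes summed to 2846 ± 136 CPM in MG_5FU and 5064 ± 194 CPM in MG_Control, and to 3837 ± 578 CPM in COL_5FU and 5280 ± 141 CPM in COL_Control (SD, n = 3). Their sum was 2061 ± 841 CPM in VIL and 3972 ± 518 CPM in COL_cWRNE. The highest group mean lay in COL_Control for 22 genes, in MG_Control for 13 and in COL_5FU for 4. On the TPM scale Ube2c, which encodes the E2 enzyme of the APC/C, was the most abundant of the 39 in each group, from 147 ± 64.9 TPM in VIL to 636 ± 116 TPM in COL_5FU (SD, n = 3). The lowest were the kinesins Cenpe and Kif4 or Mki67, depending on the group, at 4.04 to 15.3 TPM. The median over the genes was 28.2 TPM in MG_5FU and 50.8 TPM in MG_Control, 49.2 TPM in COL_5FU and 78.7 TPM in COL_Control, and 26.1 TPM in VIL and 52.8 TPM in COL_cWRNE. The TPM of all genes shifted between groups, so these medians do not by themselves measure a change between them. With limma on TPM the median log2 fold change over all genes was 0.23 for COL_Control against MG_Control. It was 0.36 for COL_5FU against MG_5FU and -0.22 for MG_5FU against MG_Control.

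The genes also varied together among the replicates of a group. COL_5FU 1 was the lowest of its group for 35 of the 39 genes and COL_5FU 3 the highest for 35, with sums of 3267 CPM and 4422 CPM. COL_cWRNE 2 was the lowest of its group for 34. VIL 3 was the lowest of all 18 libraries for all 39 genes, with a sum of 1090 CPM beside 2534 and 2560 CPM in VIL 1 and VIL 2. The SD was a median of 8.9% of the mean in MG_5FU, 8.1% in MG_Control, 17.0% in COL_5FU and 6.7% in COL_Control. In VIL it was 44.7%, and in COL_cWRNE 15.5%.

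**Figure D1:**
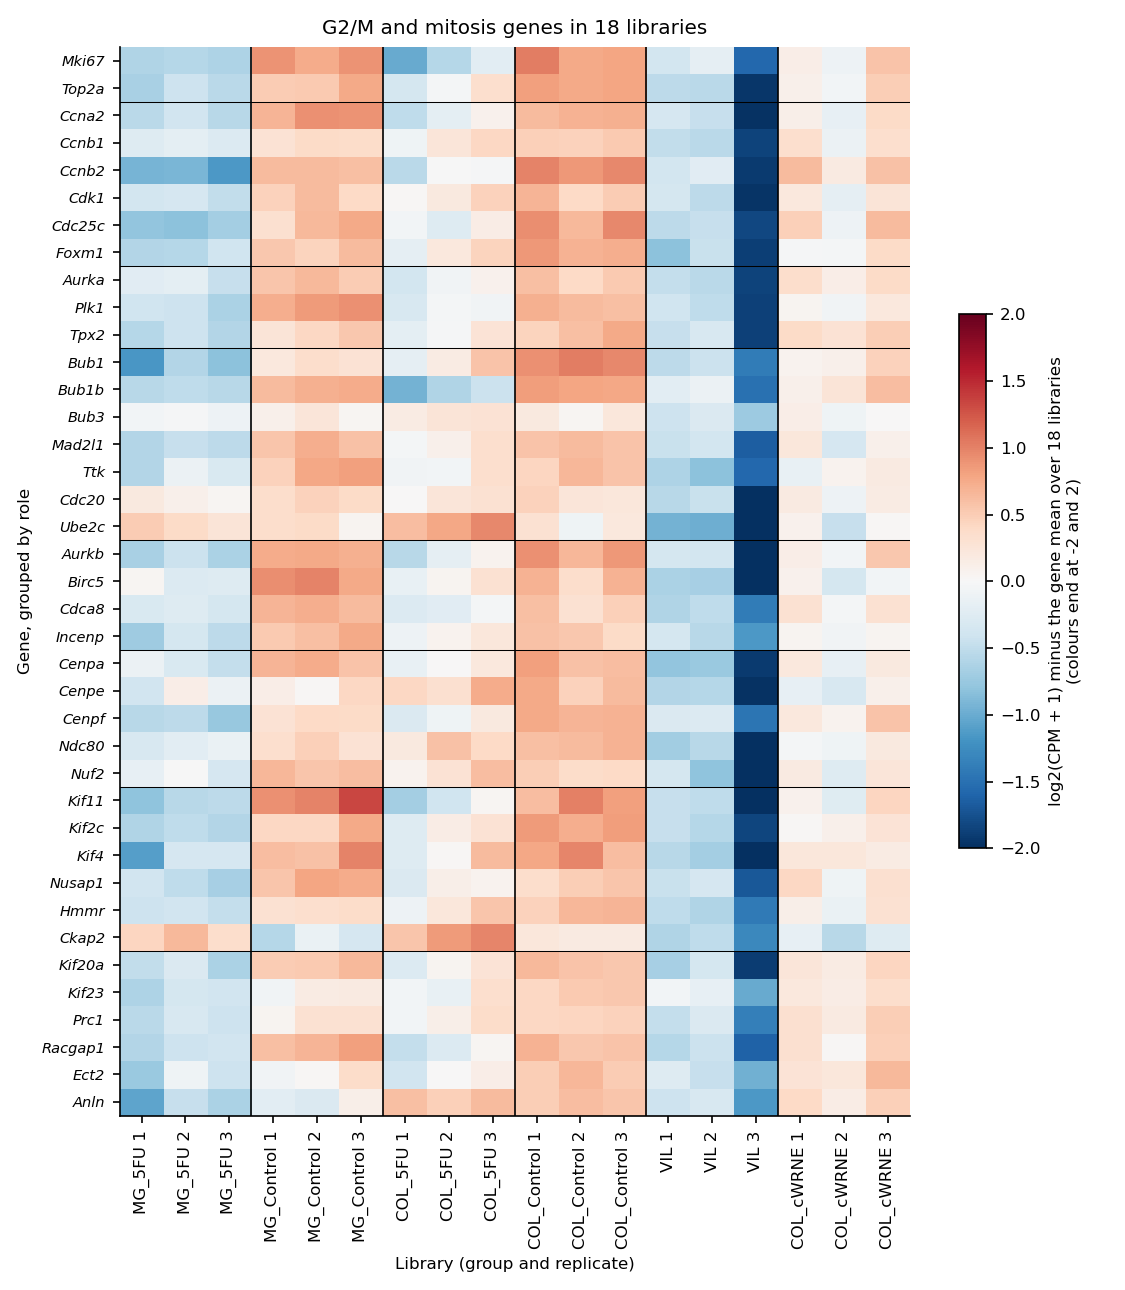
Level of each of the 39 genes (rows, grouped by role) in each of the 18 libraries (columns, grouped by culture), as log2(CPM + 1) minus the mean of that gene over the 18 libraries, with colours ending at -2 and 2. All 39 rows are below their mean in the 3 VIL libraries and most are in MG_5FU, most are above it in MG_Control and COL_Control, VIL 3 is the darkest column, and Ckap2 and Ube2c are above their mean in MG_5FU and COL_5FU.

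The first comparison asked how 5-FU changed organoids in Matrigel. Most of the G2/M and mitosis genes fell: 33 of the 39 were called lower at an adjusted p under 0.05, 1 was called higher (Ckap2) and 5 were not called. Over all 16611 genes tested, 11.7% were called lower and 19.2% higher in this comparison. The median log2 fold change was -0.99 over the 39 genes and 0.06 over all genes tested. In collagen 5-FU also lowered most of them: 27 of the 39 were called lower, 2 higher (Ube2c and Ckap2) and 10 were not called, where 16.7% of all genes tested were called lower and 18.6% higher. The median there was -0.61 over the 39 genes and -0.03 over all genes tested. Without COL_Control 3 the collagen counts were 24 lower and 2 higher, and the calls of Ttk, Hmmr and Kif23 were lost (-0.51, -0.35 and -0.44, edgeR adjusted p = 0.0713, 0.132 and 0.0565). In both gels 26 of the genes were called lower, and 7 were called lower in Matrigel and not called in collagen. Over all genes tested, neither share can exceed the 11.7% called lower in Matrigel. The fit behind these counts took no account of the replicate number, and calls that changed with it as a block are given by gene below. In bulk RNA, fewer dividing cells and less of these transcripts per dividing cell cannot be told apart.

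**Figure D2:**
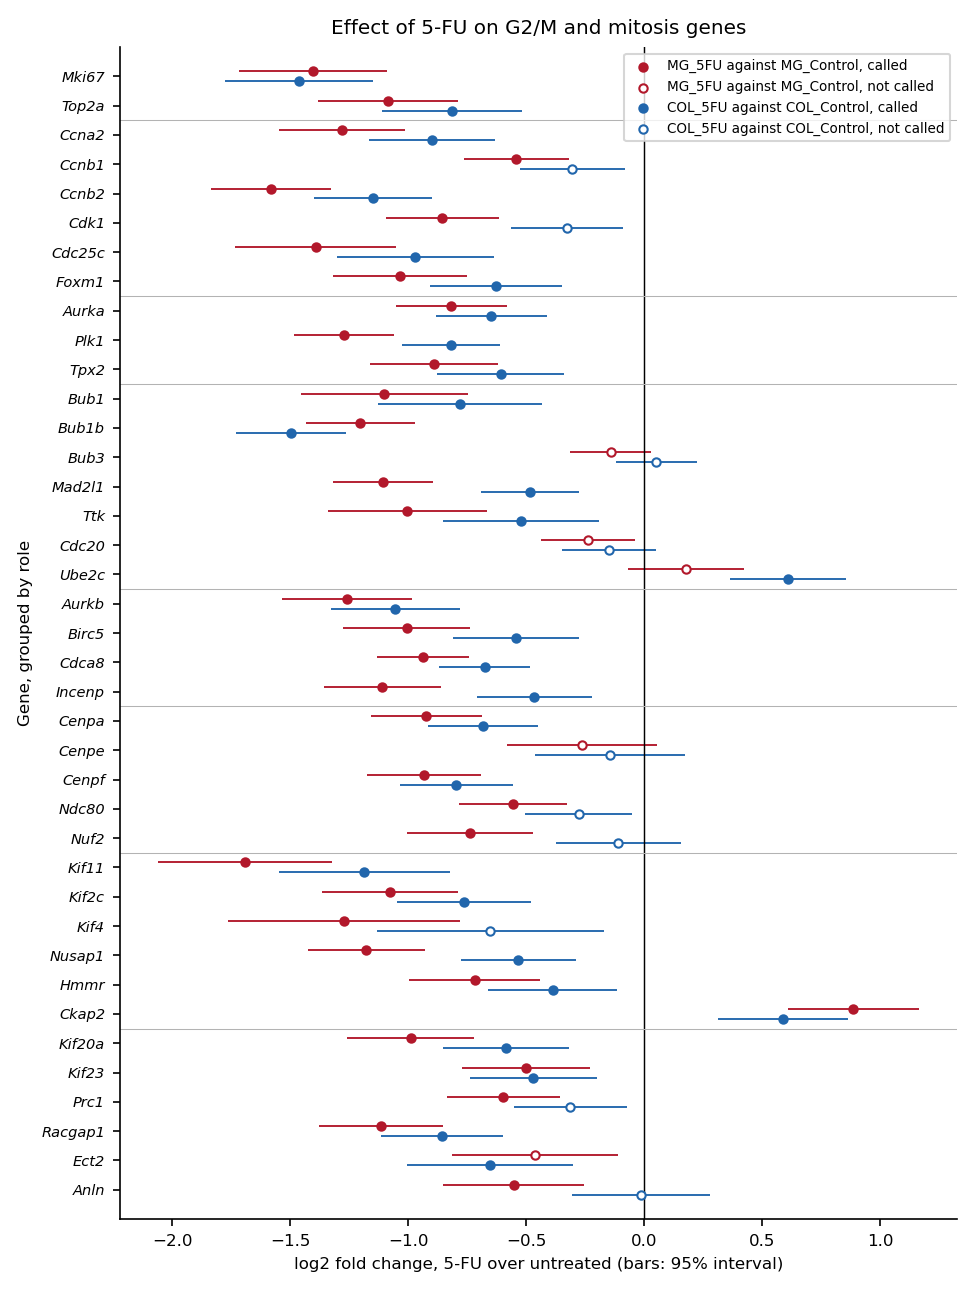
Log2 fold change of each of the 39 genes with 5-FU in Matrigel (red, MG_5FU against MG_Control) and in collagen (blue, COL_5FU against COL_Control). Bars are 95% intervals built from the SE with a normal quantile, and filled points were called at an edgeR adjusted p under 0.05. Most points lie left of 0, from -1.69 for Kif11 in Matrigel, while Ckap2 lies right of 0 in both gels and Bub3, Cdc20 and Cenpe are open in both.

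Mki67 encodes the Ki-67 protein that coats mitotic chromosomes and serves as the usual marker of cycling cells. It had 56.4, 58.0 and 55.6 CPM in MG_5FU, against 161, 146 and 161 CPM in MG_Control. The groups did not overlap, with a log2 fold change of -1.40 ± 0.16 (SE, edgeR adjusted p = 1.99e-05). In collagen Mki67 had 42.5, 57.7 and 74.2 CPM in COL_5FU, against 176, 146 and 149 CPM in COL_Control, again without overlap, and its log2 fold change was -1.46 ± 0.16 (SE, edgeR adjusted p = 1.80e-05). Top2a, the topoisomerase that untangles sister chromatids, had 123, 145 and 134 CPM in MG_5FU, against 276, 281 and 329 CPM in MG_Control. It had 152, 190.4 and 245 CPM in COL_5FU, against 346, 330.4 and 337 CPM in COL_Control, and every library with 5-FU lay below every library without it in both gels. Its log2 fold changes were -1.09 ± 0.15 (SE, edgeR adjusted p = 1.10e-04) in Matrigel and -0.81 ± 0.15 (SE, edgeR adjusted p = 9.58e-04) in collagen.

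Of the 6 genes of the cyclins, CDK1 and their activators, all 6 were called lower in Matrigel (median log2 fold change -1.16) and 4 in collagen (median -0.76). Ccnb2, a B-type cyclin, had 49.5, 50.0 and 42.7 CPM in MG_5FU, against 148, 149 and 145 CPM in MG_Control, and 65.6, 94.4 and 94.4 CPM in COL_5FU, against 191, 174 and 187 CPM in COL_Control. Ccnb2 was lower in every library with 5-FU in both gels, with log2 fold changes of -1.58 ± 0.13 (SE, edgeR adjusted p = 1.32e-06) and -1.15 ± 0.13 (SE, edgeR adjusted p = 2.02e-05). Ccnb1, which encodes cyclin B1, had 162, 169.5 and 162 CPM in MG_5FU, against 239, 254 and 252 CPM in MG_Control, with no overlap and a log2 fold change of -0.54 ± 0.11 (SE, edgeR adjusted p = 0.00245); with all 18 libraries in one fit this call was lost (-0.60, adjusted p = 0.0955). In collagen Ccnb1 had 184, 231 and 261 CPM in COL_5FU, against 271, 267 and 279.9 CPM in COL_Control. These groups did not overlap either, but the difference of -0.31 ± 0.11 (SE, edgeR adjusted p = 0.0511) did not pass. With the replicate number as a block it was -0.32 (edgeR adjusted p = 0.0253).

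Cdk1, the kinase that both B-type cyclins activate, had 95.7, 98.2 and 87.7 CPM in MG_5FU, against 172, 194 and 163 CPM in MG_Control and fell with a log2 fold change of -0.86 ± 0.12 (SE, edgeR adjusted p = 1.31e-04). In collagen it had 126, 143 and 171 CPM in COL_5FU, against 198, 164 and 177 CPM in COL_Control, where COL_5FU 3 lay above COL_Control 2, and the log2 fold change was -0.33 (95% interval -0.56 to -0.09, edgeR adjusted p = 0.0507). Cdc25c, a phosphatase that activates CDK1, had 9.00, 8.85 and 9.88 CPM in MG_5FU, against 20.7, 26.1 and 28.5 CPM in MG_Control and a log2 fold change of -1.39 ± 0.17 (SE, edgeR adjusted p = 4.36e-05). In collagen Cdc25c had a log2 fold change of -0.97 ± 0.17 (SE, edgeR adjusted p = 6.57e-04). Foxm1, the transcription factor of many of these genes, had 27.7, 28.1 and 31.7 CPM in MG_5FU, against 61.7, 58.1 and 66.1 CPM in MG_Control, and 37.0, 48.7 and 57.9 CPM in COL_5FU, against 78.0, 68.7 and 70.5 CPM in COL_Control. No library with 5-FU reached an untreated one, with log2 fold changes of -1.04 ± 0.14 (SE, edgeR adjusted p = 1.10e-04) and -0.63 ± 0.14 (SE, edgeR adjusted p = 0.00388). The call of Foxm1 in collagen was lost with all 18 libraries in one fit (-0.60, adjusted p = 0.0953). Ccna2, the A-type cyclin of S phase and G2, fell in both gels, with log2 fold changes of -1.28 ± 0.14 and -0.90 ± 0.14 (SE, edgeR adjusted p = 1.13e-05 and 2.17e-04).

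All 3 mitotic kinase genes of the centrosome and spindle (Aurka, Plk1 and Tpx2, the activator of Aurora A) fell in both gels. Plk1, the polo-like kinase that drives entry into mitosis and spindle assembly, had 81.8, 80.5 and 69.1 CPM in MG_5FU, against 179, 195 and 205 CPM in MG_Control. In collagen it had 86.5, 105 and 103 CPM in COL_5FU, against 177, 168 and 164 CPM in COL_Control, and in neither gel did the groups overlap. The log2 fold changes of Plk1 were -1.27 ± 0.11 (SE, edgeR adjusted p = 1.65e-06) in Matrigel and -0.82 ± 0.11 (SE, edgeR adjusted p = 6.83e-05) in collagen. Aurka and Tpx2 had log2 fold changes of -0.82 and -0.89 in Matrigel and -0.65 and -0.61 in collagen.

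Of the 7 spindle checkpoint and APC/C genes, Bub1, Bub1b, Mad2l1 and Ttk, all of the checkpoint, fell in both gels. Bub3, Cdc20 and Ube2c were not called lower in either gel. Bub1b, which encodes the checkpoint protein BubR1, had 49.7, 51.4 and 49.6 CPM in MG_5FU, against 115, 121 and 124 CPM in MG_Control, and 37.8, 48.0 and 54.2 CPM in COL_5FU, against 133, 128 and 126 CPM in COL_Control. Its levels with 5-FU were below all untreated ones in both gels, and its log2 fold changes were -1.20 ± 0.12 (SE, edgeR adjusted p = 5.48e-06) and -1.50 ± 0.12 (SE, edgeR adjusted p = 1.35e-06). Its fall was the largest of the 39 genes in collagen. Bub1, Mad2l1 and Ttk had log2 fold changes of -1.004 to -1.11 in Matrigel and of -0.49 to -0.78 in collagen.

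Bub3 encodes the partner that brings Bub1 and BubR1 to the kinetochore. It had 201, 206 and 195 CPM in MG_5FU, against 225, 248 and 216 CPM in MG_Control. All 3 libraries with 5-FU were lower, and the log2 fold change was -0.14 (95% interval -0.31 to 0.03, edgeR adjusted p = 0.249). In collagen Bub3 had 236, 249.5 and 256 CPM in COL_5FU, against 239, 216 and 246 CPM in COL_Control, with overlap, and a log2 fold change of 0.05 (95% interval -0.12 to 0.22, edgeR adjusted p = 0.689). Cdc20, the activator of the APC/C that the checkpoint restrains, had 218, 206 and 197 CPM in MG_5FU, against 245, 264 and 251 CPM in MG_Control, with no overlap and a log2 fold change of -0.24 (95% interval -0.44 to -0.04, edgeR adjusted p = 0.0957). In collagen Cdc20 had 193, 228 and 238 CPM in COL_5FU, against 264, 227 and 223 CPM in COL_Control, with overlap and a log2 fold change of -0.15 (95% interval -0.35 to 0.05, edgeR adjusted p = 0.28). Ube2c had 291, 266 and 243 CPM in MG_5FU, against 258, 265 and 211 CPM in MG_Control, where the groups overlapped, with a log2 fold change of 0.18 (95% interval -0.07 to 0.42, edgeR adjusted p = 0.318); with limma on TPM its sign turned (-0.13). In collagen it had 312, 348 and 395 CPM in COL_5FU, against 250.1, 192 and 236 CPM in COL_Control. Every library with 5-FU lay above the untreated ones there, and Ube2c rose with a log2 fold change of 0.61 ± 0.13 (SE, edgeR adjusted p = 0.00206). With all 18 libraries in one fit this call was lost (0.64, adjusted p = 0.0982).

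All 4 genes of the chromosomal passenger complex, which corrects faulty attachments of chromosomes and guides cytokinesis, fell in both gels (median log2 fold changes -1.06 and -0.61). Aurkb, its kinase, had 54.3, 63.4 and 54.9 CPM in MG_5FU, against 144, 145 and 140.4 CPM in MG_Control, and 58.0, 75.3 and 90.1 CPM in COL_5FU, against 162, 136 and 156 CPM in COL_Control. The groups did not overlap in either gel, with log2 fold changes of -1.26 ± 0.14 (SE, edgeR adjusted p = 1.69e-05) and -1.06 ± 0.14 (SE, edgeR adjusted p = 8.03e-05). Birc5, which encodes survivin, Cdca8, which encodes borealin, and the scaffold Incenp had log2 fold changes of -1.01, -0.94 and -1.11 in Matrigel and -0.54, -0.68 and -0.47 in collagen.

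Of 5 centromere and kinetochore genes, 4 fell in Matrigel and 2 in collagen. Cenpa, the histone variant that marks the centromere, and Cenpf, a large kinetochore protein, fell in both gels, with log2 fold changes of -0.92 and -0.93 in Matrigel and -0.68 and -0.80 in collagen. Ndc80 and Nuf2, which together form part of the kinetochore's microtubule contact, fell in Matrigel (-0.56 ± 0.12 and -0.74 ± 0.14, SE, edgeR adjusted p = 0.00256 and 9.93e-04) and were not called in collagen (-0.28 and -0.11, adjusted p = 0.0785 and 0.567); with the replicate block Ndc80 was called there (-0.29, adjusted p = 0.0493). Cenpe, the kinetochore motor, had log2 fold changes of -0.26 (95% interval -0.58 to 0.06, edgeR adjusted p = 0.25) in Matrigel and -0.14 (95% interval -0.46 to 0.17, edgeR adjusted p = 0.522) in collagen.

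Of 6 kinesin motors and spindle proteins, 5 fell in Matrigel and 4 in collagen, and Ckap2 rose in both. Kif11, the motor that pushes spindle poles apart, had 37.3, 44.7 and 45.5 CPM in MG_5FU, against 126, 133 and 168 CPM in MG_Control, the largest fall of the 39 genes in Matrigel at -1.69 ± 0.19 (SE, edgeR adjusted p = 1.59e-05). In collagen it had 40.8, 50.0 and 67.7 CPM in COL_5FU, against 102, 134 and 118 CPM in COL_Control, also without overlap, with a log2 fold change of -1.19 ± 0.19 (SE, edgeR adjusted p = 2.79e-04). Kif2c, a kinesin that takes microtubules apart, Nusap1, a spindle-bundling protein, and Hmmr, a spindle assembly factor, had log2 fold changes of -1.08, -1.18 and -0.72 in Matrigel and -0.77, -0.53 and -0.39 in collagen, all called. Kif4, a motor on chromosome arms, fell in Matrigel (log2 fold change -1.27, SE 0.25, edgeR adjusted p = 0.00159) and was not called in collagen (log2 fold change -0.65, SE 0.25, edgeR adjusted p = 0.0541); with the replicate block it was called there as well (-0.71, edgeR adjusted p = 0.0124).

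Ckap2 encodes a protein that binds spindle microtubules. It had 72.6, 85.1 and 69.2 CPM in MG_5FU, against 35.8, 49.0 and 42.4 CPM in MG_Control, and 79.2, 98.5 and 107 CPM in COL_5FU, against 63.0, 61.4 and 61.4 CPM in COL_Control. In each gel all 3 libraries with 5-FU lay above all 3 without it, and Ckap2 rose with log2 fold changes of 0.89 ± 0.14 (SE, edgeR adjusted p = 3.25e-04) and 0.59 ± 0.14 (SE, edgeR adjusted p = 0.00532). With limma on TPM its rise in collagen did not pass (0.37, adjusted p = 0.125).

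**Figure D3:**
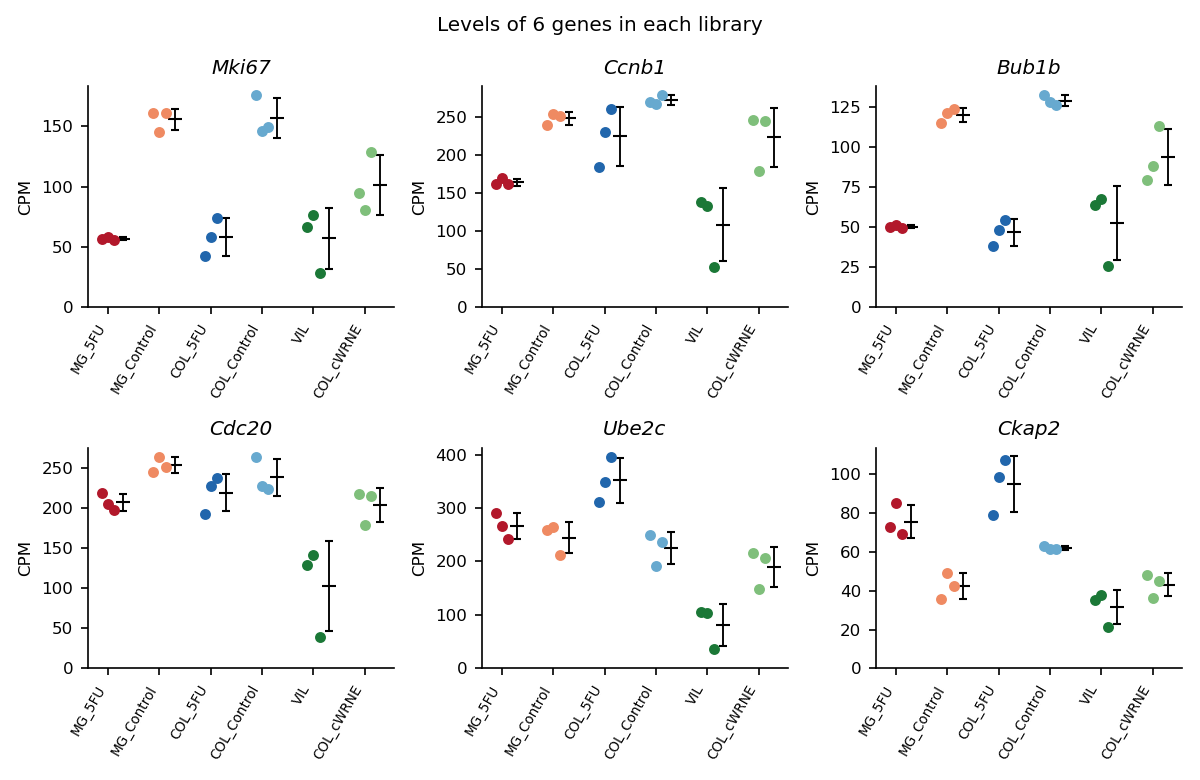
CPM of Mki67, Ccnb1, Bub1b, Cdc20, Ube2c and Ckap2 in every library, with points for the 3 replicates of each group and, in black, the group mean and SD; each axis starts at 0. Mki67 and Bub1b are low in MG_5FU, COL_5FU and VIL, Ube2c is highest in COL_5FU, and Ckap2 stands above its untreated group with 5-FU in both gels.

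Of the 6 genes of the central spindle and cytokinesis, 5 fell in Matrigel and 4 in collagen, with median log2 fold changes of -0.57 and -0.53. Racgap1 and Kif20a, which build the central spindle or bring kinases to it, had log2 fold changes of -1.12 and -0.99 in Matrigel and -0.86 and -0.59 in collagen. Kif23, the motor partner of Racgap1, fell in both gels (-0.50 and -0.47). Prc1, which bundles the central spindle, fell in Matrigel (-0.60, adjusted p = 0.00219) and had -0.31 in collagen (adjusted p = 0.0614), where the replicate block gave -0.32 (adjusted p = 0.0185). Ect2, the exchange factor that activates RhoA at the division site, was called in collagen (log2 fold change -0.65, SE 0.18, edgeR adjusted p = 0.012) and not in Matrigel (log2 fold change -0.46, 95% interval -0.81 to -0.11, edgeR adjusted p = 0.0668), where it was called with the replicate block (-0.47, edgeR adjusted p = 0.0157).

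Anln encodes anillin, a scaffold of the contractile ring. It had 29.0, 44.1 and 39.04 CPM in MG_5FU, against 53.2, 50.2 and 67.04 CPM in MG_Control, with no overlap and a log2 fold change of -0.55 ± 0.15 (SE, edgeR adjusted p = 0.0137). In collagen Anln had 93.6, 86.2 and 95.7 CPM in COL_5FU, against 86.6, 94.8 and 90.8 CPM in COL_Control. Those groups overlapped fully, and the log2 fold change was -0.01 (95% interval -0.31 to 0.28, edgeR adjusted p = 0.959).

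Whether the response to 5-FU differed between the gels was tested with the interaction, the log2 effect in collagen minus that in Matrigel. It was called higher for 3 of the 39 genes (Mad2l1, Incenp and Nusap1) and was not called for the other 36, where 1.88% of all genes tested were called higher and 6.30% lower. The median was 0.31 over the 39 genes and -0.07 over all genes tested, and 35 of the 39 differences were above 0. Mad2l1, the checkpoint protein that binds Cdc20, had 54.6, 59.3 and 57.2 CPM in MG_5FU, against 121, 137 and 124 CPM in MG_Control, and 80.3, 88.1 and 104 CPM in COL_5FU, against 123, 128 and 123 CPM in COL_Control. It was lower with 5-FU in both gels without overlap, and its interaction was 0.62 ± 0.15 (SE, edgeR adjusted p = 0.0215). Incenp had 46.4, 59.8 and 52.5 CPM in MG_5FU, against 109.9, 116 and 129 CPM in MG_Control, and 71.1, 80.4 and 89.5 CPM in COL_5FU, against 115, 111 and 99.4 CPM in COL_Control, with an interaction of 0.64 ± 0.18 (SE, edgeR adjusted p = 0.0397). Nusap1 had 45.8, 42.2 and 37.9 CPM in MG_5FU, against 88.9, 105 and 102 CPM in MG_Control, and 49.3, 65.5 and 63.6 CPM in COL_5FU, against 77.6, 85.6 and 89.5 CPM in COL_Control, with an interaction of 0.64 ± 0.18 (SE, edgeR adjusted p = 0.04). Neither gene's groups overlapped in either gel. For Mki67 the interaction was -0.06 (95% interval -0.49 to 0.38, edgeR adjusted p = 0.922) and for Kif23 it was 0.03 (95% interval -0.35 to 0.41, edgeR adjusted p = 0.954), the smallest of the 39. Without COL_Control 3 the count of called genes was 0, as it was without MG_Control 2, and without COL_5FU 1 it was 7. It was 1 without MG_Control 3, MG_5FU 3, COL_Control 2, COL_5FU 2 or COL_5FU 3, and 2 without each of the other libraries except MG_Control 1, which left 3.

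Genes of the same pathway outside the 39 were followed in 4 lists. Of 73 further mitotic genes, 61 fell and 3 rose in Matrigel, and 48 fell and 4 rose in collagen (43 and 4 without COL_Control 3). Cdca3, a trigger of mitotic entry, was among those that fell, with 54.2, 52.8 and 46.3 CPM in MG_5FU, against 158, 164 and 142 CPM in MG_Control and log2 fold changes of -1.54 ± 0.12 (SE, edgeR adjusted p = 7.53e-07) and -1.12 ± 0.12 (SE, edgeR adjusted p = 1.31e-05). Psrc1, which encodes a microtubule-binding protein, had 179, 187 and 182 CPM in MG_5FU, against 14.6, 15.6 and 11.3 CPM in MG_Control and rose with log2 fold changes of 3.78 ± 0.19 (SE, edgeR adjusted p = 2.02e-08) in Matrigel and 2.202 ± 0.17 (SE, edgeR adjusted p = 1.32e-06) in collagen. Gtse1, a spindle protein named for G2 and S phase expression, had 192, 253 and 225 CPM in MG_5FU, against 50.7, 47.8 and 43.7 CPM in MG_Control and rose likewise (2.29 ± 0.12 and 1.60 ± 0.12, SE, edgeR adjusted p = 2.23e-08 and 7.33e-07). Lmnb1, which encodes lamin B1, fell in Matrigel with a log2 fold change of -1.11 ± 0.10 (SE, edgeR adjusted p = 2.54e-06).

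Of 15 regulators of G2 entry and of the checkpoint, 4 fell and 5 rose in Matrigel, and 7 fell and 5 rose in collagen (6 and 5 without COL_Control 3). Cdkn1a, which encodes the CDK inhibitor p21, had 1114, 899 and 956 CPM in MG_5FU, against 139, 99.0 and 67.8 CPM in MG_Control, and 932, 929.6 and 895 CPM in COL_5FU, against 210.4, 151 and 182 CPM in COL_Control. It rose with log2 fold changes of 3.34 ± 0.20 (SE, edgeR adjusted p = 9.95e-08) and 2.31 ± 0.19 (SE, edgeR adjusted p = 2.06e-06), and its interaction was -1.03 ± 0.26 (SE, edgeR adjusted p = 0.0282), which did not pass without COL_Control 3 (-1.02, edgeR adjusted p = 0.0587). Ccng1, Plk2 and Btg2, each a known p53 target, also rose in both gels, with log2 fold changes of 3.19, 3.87 and 1.74 in Matrigel and 1.96, 2.11 and 1.27 in collagen.

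Of 11 DREAM and MYB-MuvB complex genes, 8 fell and 0 rose in Matrigel, and 3 fell and 1 rose in collagen (2 and 1 without COL_Control 3). Mybl2, the B-MYB protein of the activating complex, had 29.5, 38.9 and 34.2 CPM in MG_5FU, against 77.3, 81.4 and 83.0 CPM in MG_Control, with log2 fold changes of -1.18 ± 0.16 (SE, edgeR adjusted p = 6.92e-05) and -0.94 ± 0.15 (SE, edgeR adjusted p = 4.15e-04). Lin52, a core MuvB subunit, was the one that rose in collagen (log2 fold change 0.67, SE 0.17, edgeR adjusted p = 0.00703). Lin54 was not analysed here. Of 24 S phase and replication genes, 23 fell and 0 rose in Matrigel, and 13 fell and 0 rose in collagen (11 and 0 without COL_Control 3). Tk1, the thymidine kinase, and Lig1, the DNA ligase of replication, had log2 fold changes of -2.15 and -1.67 in Matrigel and -1.03 and -1.52 in collagen. The interaction was called higher for 13 of these 24 genes, among them Mcm5, a subunit of the replicative helicase, at 0.99 ± 0.15 (SE, edgeR adjusted p = 0.00119). Without COL_Control 3 it was called for 7 of the 24.

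Markers of the epithelial cell types moved with 5-FU too. In Matrigel 5 of 5 Paneth cell markers rose, and their summed CPM was 24416 to 25655 in MG_5FU and 7216 to 8297 in MG_Control. There, 6 of 6 enteroendocrine markers rose (1855 to 1931 CPM in MG_5FU and 473 to 600.2 CPM in MG_Control) and 5 of 7 absorptive enterocyte markers rose (6779 to 8463 CPM and 2406 to 2615 CPM in the same groups). Of 6 goblet cell markers 4 rose (3241 to 4294 CPM in MG_5FU and 1913 to 2188 CPM in MG_Control). Of 5 crypt stem cell markers 3 fell and 1 rose, with sums of 1209.8 to 1604 CPM in MG_5FU and 4339 to 5448 CPM in MG_Control. In collagen 3 of these 5 fell and 2 rose (864 to 1042 CPM in COL_5FU and 1497 to 1643 CPM in COL_Control), 5 of 6 goblet cell markers fell and 1 rose (622 to 666 CPM in COL_5FU and 1038 to 1377 CPM in COL_Control), 5 of 7 absorptive enterocyte markers fell (124 to 197 CPM and 222 to 769 CPM in the same groups), 1 of 5 Paneth cell markers fell, and 2 of 6 enteroendocrine markers rose. Without COL_Control 3 the collagen calls were 3 lower and 1 higher for stem cell, 4 lower and 1 higher for goblet, 5 lower for absorptive, 1 lower for Paneth and 1 higher for enteroendocrine markers. Of 4 tuft cell markers 3 rose in Matrigel, and 2 fell and 1 rose in collagen, also without COL_Control 3. No marker of these lists was at 0 in a whole group. The part of such shifts in cell types in the fall of the 39 genes was not tested.

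Crypt-derived organoids in collagen and Matrigel were also compared directly. These 2 comparisons share their libraries with the 5-FU comparisons above. Without 5-FU, COL_Control against MG_Control, 5 of the 39 genes were called higher in collagen and the other 34 were not called, where 15.8% of all genes tested were called higher and 15.4% lower. The median was 0.04 over the 39 genes and 0.04 over all genes. Bub1, the kinase of the spindle checkpoint, had 97.9, 106 and 101 CPM in COL_Control, against 60.2, 66.3 and 63.6 CPM in MG_Control, without overlap (log2 fold change 0.67, SE 0.18, edgeR adjusted p = 0.0104). Anln had 86.6, 94.8 and 90.8 CPM in COL_Control, against 53.2, 50.2 and 67.04 CPM in MG_Control, also without overlap (log2 fold change 0.66, SE 0.15, edgeR adjusted p = 0.00446). Ckap2 had 63.0, 61.4 and 61.4 CPM in COL_Control, against 35.8, 49.0 and 42.4 CPM in MG_Control (log2 fold change 0.54, SE 0.14, edgeR adjusted p = 0.0106), and Kif23 had 119, 128 and 129 CPM in COL_Control, against 84.9, 99.1 and 101 CPM in MG_Control (log2 fold change 0.39, SE 0.14, edgeR adjusted p = 0.0446); neither gene's groups overlapped. Cenpf was the other gene called, with 0.35 (adjusted p = 0.0438). Mki67 (log2 fold change 0.01, 95% interval -0.30 to 0.31, edgeR adjusted p = 0.985) and Cenpa (log2 fold change 0.00, 95% interval -0.23 to 0.23, edgeR adjusted p = 0.999) differed least. Without COL_Control 3 the count was 3, as it was without COL_Control 1 or 2 or without MG_Control 1 or 2, and the call of Kif23 was lost in each case. With the replicate block Cenpe (0.43, edgeR adjusted p = 0.0438) and Ect2 (0.45, adjusted p = 0.0201) were called as well. Markers of differentiated cells were lower in COL_Control: 4 of 5 Paneth markers (2642 to 3670 CPM in COL_Control and 7216 to 8297 CPM in MG_Control), 5 of 6 goblet, 6 of 6 enteroendocrine and 6 of 7 absorptive enterocyte markers (222 to 769 CPM and 2406 to 2615 CPM in the same groups) were called lower. Without COL_Control 3 these counts were 3, 5, 3 and 6. Of 4 tuft cell markers 3 were called lower, and 2 without COL_Control 3. Their part in the differences was not tested.

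With 5-FU, COL_5FU against MG_5FU, 21 of the 39 genes were called higher in collagen and the other 18 were not called, where 17.0% of all genes tested were called higher and 18.6% lower. The median was 0.42 over the 39 genes and 0.00 over all genes. Anln had 93.6, 86.2 and 95.7 CPM in COL_5FU, against 29.0, 44.1 and 39.04 CPM in MG_5FU, with every collagen library above every Matrigel library (log2 fold change 1.20, SE 0.15, edgeR adjusted p = 3.96e-05). Bub1 had 45.5, 58.1 and 77.3 CPM in COL_5FU, against 22.6, 34.0 and 28.7 CPM in MG_5FU (log2 fold change 0.99, SE 0.18, edgeR adjusted p = 7.37e-04). Ccnb2 had 65.6, 94.4 and 94.4 CPM in COL_5FU, against 49.5, 50.0 and 42.7 CPM in MG_5FU (log2 fold change 0.75, SE 0.13, edgeR adjusted p = 4.88e-04), and Cdc25c had 15.7, 13.5 and 18.2 CPM in COL_5FU, against 9.00, 8.85 and 9.88 CPM in MG_5FU (log2 fold change 0.68, SE 0.17, edgeR adjusted p = 0.00742). None of these 3 overlapped between the gels. The called genes held 5 of 6 of the cyclins, CDK1 and their activators, 4 of 5 centromere and kinetochore genes and 4 of 6 cytokinesis genes, and 1 of 4 passenger complex genes. Cdc20 (log2 fold change -0.01, 95% interval -0.21 to 0.19, edgeR adjusted p = 0.957) and Cdca8 (log2 fold change 0.04, 95% interval -0.16 to 0.23, edgeR adjusted p = 0.811) differed least, and Mki67, with 58.2 ± 15.8 CPM in COL_5FU and 56.7 ± 1.22 CPM in MG_5FU (SD, n = 3), had a log2 fold change of -0.05 (95% interval -0.36 to 0.26, edgeR adjusted p = 0.836). With limma on TPM 36 of the 39 genes were called higher, while the genes called higher over the whole table went from 2822 to 6014. The median over all genes was then 0.36. The median of the 39 genes relative to it was 0.40, beside 0.42 in the main fit. With all 18 libraries in one fit the count of the 39 genes was 8, and the call of Cdc25c was lost (edgeR adjusted p = 0.0653). Of the other lists, 34 of 73 further mitotic genes and 14 of 24 S phase genes were higher in collagen and 0 of either were lower, with Pimreg, a mitotic regulator, at 3.19 ± 0.33 (SE, edgeR adjusted p = 6.80e-06). Of 15 regulators of G2 entry 4 were lower and 3 higher in collagen, and of 11 DREAM and MYB-MuvB genes 0 were lower and 3 higher. All markers of 4 differentiated cell types were called lower in COL_5FU: 5 of 5 Paneth markers (3009.8 to 3369 CPM in COL_5FU and 24416 to 25655 CPM in MG_5FU), 6 of 6 goblet markers (622 to 666 CPM and 3241 to 4294 CPM in the same groups), 6 of 6 enteroendocrine markers (256 to 517 CPM and 1855 to 1931 CPM) and 7 of 7 absorptive enterocyte markers (124 to 197 CPM and 6779 to 8463 CPM). Of 4 tuft cell markers 3 were called lower (13.2 to 26.0 CPM in COL_5FU and 53.6 to 68.4 CPM in MG_5FU). The part of these cell types in the higher levels of the 39 genes was not tested.

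Villus-derived organoids were compared with crypt-derived organoids in the same gel and medium, VIL against COL_cWRNE. All 39 genes had a negative log2 fold change, with a median of -0.97 against -0.03 over all 16699 genes tested. Of the 39, 9 were called lower and 30 were not called, where 1.96% of all genes tested were called lower and 5.68% higher. Every VIL library lay below every COL_cWRNE library for 38 of the 39 genes, as for 14.8% of all genes tested. At an unadjusted p under 0.05, 38 of the 39 were lower. DESeq2 called 24 lower, and 668 lower over all genes, beside 327 over all genes in the main fit. With all 18 libraries in the fit edgeR called 34 of the 39, and with these 2 groups alone 0. Shares over all genes for the unadjusted p and these 2 fits are not given here. Cenpa had 49.1, 50.5 and 22.0 CPM in VIL, against 99.2, 76.6 and 98.3 CPM in COL_cWRNE (log2 fold change -1.16, SE 0.28, edgeR adjusted p = 0.0349). Racgap1 had 65.7, 72.7 and 31.4 CPM in VIL, against 123, 100.2 and 138 CPM in COL_cWRNE (log2 fold change -1.08, SE 0.28, edgeR adjusted p = 0.0439). Ttk, the checkpoint kinase MPS1, had 16.1, 13.8 and 7.79 CPM in VIL, against 22.5, 26.6 and 28.8 CPM in COL_cWRNE (log2 fold change -1.03, SE 0.26, edgeR adjusted p = 0.04), and Cdca8 had 60.5, 64.1 and 34.4 CPM in VIL, against 114, 89.0 and 114 CPM in COL_cWRNE (log2 fold change -0.98, SE 0.22, edgeR adjusted p = 0.0279). In each of these the VIL libraries were all lower, and VIL 3 was the lowest. The other 5 called genes were Prc1, Bub1, Anln, Ect2 and Hmmr, with log2 fold changes of -0.91 to -0.97. Of the 9, 4 belong to the central spindle and cytokinesis, whose 6 genes had a median of -0.96, beside -0.97 over the 39. With the replicate block only Cenpa and Cdca8 of the 9 stayed called.

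Many of the other genes had log2 fold changes of like size and were not called; the SD of VIL was a median of 44.7% of the mean. Mki67 had 66.4, 76.2 and 28.3 CPM in VIL, against 94.97, 80.2 and 129 CPM in COL_cWRNE (log2 fold change -0.82, SE 0.32, edgeR adjusted p = 0.167), and Ccnb1 had 139, 133 and 53.2 CPM in VIL, against 246, 179 and 245 CPM in COL_cWRNE (log2 fold change -1.03, SE 0.31, edgeR adjusted p = 0.0801). Ube2c had 105, 103 and 36.1 CPM in VIL, against 216, 148 and 206 CPM in COL_cWRNE (log2 fold change -1.21, SE 0.35, edgeR adjusted p = 0.0691). In all 3 genes VIL 1 and VIL 2 lay close together and below the crypt-derived cultures, and VIL 3 lay well below both. Top2a had 135, 133 and 49.5 CPM in VIL, against 208, 188 and 273 CPM in COL_cWRNE, with a log2 fold change of -1.06 (95% interval -1.71 to -0.42, edgeR adjusted p = 0.0876). Cdk1 had 97.1, 85.9 and 31.1 CPM in VIL, against 144, 109 and 149 CPM in COL_cWRNE, with -0.90 (95% interval -1.57 to -0.22, edgeR adjusted p = 0.162). In both, VIL 3 was again the lowest. Plk1 had 81.5, 75.2 and 28.9 CPM in VIL, against 112, 103 and 125 CPM in COL_cWRNE, with a log2 fold change of -0.86 that was not called. Aurkb had 66.9, 65.9 and 18.3 CPM in VIL, against 93.9, 82.4 and 124 CPM in COL_cWRNE, with -0.98, and Foxm1 had 23.3, 30.7 and 10.7 CPM in VIL, against 41.6, 40.9 and 55.2 CPM in COL_cWRNE, with -1.08, neither of them called. Bub3 (log2 fold change -0.49, 95% interval -0.77 to -0.20, edgeR adjusted p = 0.0753) and Ckap2 (log2 fold change -0.45, 95% interval -0.89 to 0.00, edgeR adjusted p = 0.292) differed least, and Ckap2, with 35.3, 37.7 and 21.4 CPM in VIL, against 48.0, 36.5 and 44.8 CPM in COL_cWRNE, was the only one of the 39 whose groups overlapped.

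Markers of other cell types were higher in VIL. The summed CPM of 8 immune cell markers was 964, 2741 and 3872 in VIL and 99.3 to 141 in COL_cWRNE, and that of 10 mesenchyme markers was 50.5, 743 and 704 in VIL and 4.52 to 7.81 in COL_cWRNE. Of these, 9 of the 9 mesenchyme markers tested and 4 of the 6 immune markers tested were called higher in VIL. Ptprc, which encodes the leukocyte protein CD45, was at 0 counts in all 3 COL_cWRNE libraries and at 1.05, 11.1 and 27.2 CPM in VIL, and Col3a1, a fibroblast collagen, was at 0 in COL_cWRNE and at 9.94, 236 and 156 CPM in VIL. With VIL 1, the library with the least of both, as the only villus-derived library, 11 of the 39 genes were called lower and the median was -0.63. There the single library was assumed to vary like the other groups. Without VIL 3 the count was 25 and the median -0.67, without VIL 1 it was 16, and without VIL 2 it was 4. Without COL_cWRNE 1, 2 or 3 it was 0. Markers of epithelial cell types moved too. The absorptive enterocyte markers summed to 2698, 1193 and 1409 CPM in VIL and 310.03 to 317 CPM in COL_cWRNE, and 3 of 7 were called higher. The goblet cell markers summed to 3456, 1679 and 467 CPM in VIL and 576 to 703 CPM in COL_cWRNE, and 2 of 6 were called higher. Crypt stem cell markers summed to 528, 404 and 264 CPM in VIL and 628 to 905 CPM in COL_cWRNE, and 1 of 5 was called lower. Paneth cell markers summed to 8988, 3644 and 1126 CPM in VIL and 2426 to 3775 CPM in COL_cWRNE, with 0 of 5 called. Of 4 tuft cell markers 1 was called higher, and of 6 enteroendocrine markers 1 was called lower. The part of immune and mesenchymal RNA and of these epithelial cell types in the size of the difference was not tested.

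**Figure D4:**
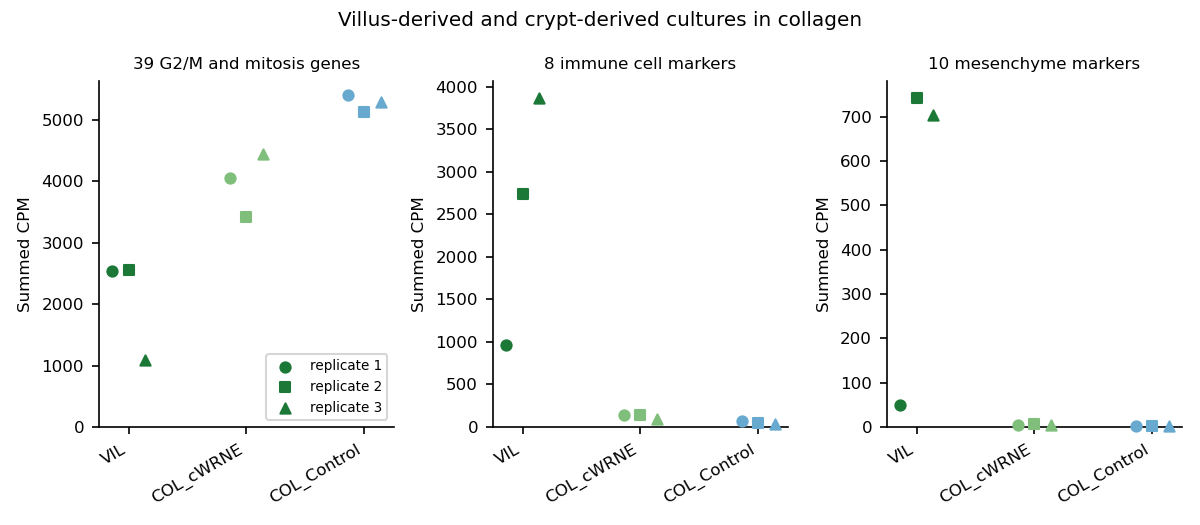
Summed CPM of the 39 G2/M and mitosis genes (left), of 8 immune cell markers (middle) and of 10 mesenchyme markers (right) in each library of VIL, COL_cWRNE and COL_Control, one marker shape per replicate; axes start at 0. The genes sum to 1090 to 2560 CPM in VIL, below both other groups, and VIL 2 and VIL 3 carry most of the immune and mesenchyme transcripts.

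Against crypt-derived organoids in Matrigel, VIL against MG_Control, 36 of the 39 genes were called lower and 3 were not called, where 19.7% of all genes tested were called lower and 27.0% higher. The median was -1.45 over the 39 genes and 0.02 over all genes. Kif11 had 47.8, 46.2 and 14.8 CPM in VIL, against 126, 133 and 168 CPM in MG_Control (log2 fold change -2.01, SE 0.39, edgeR adjusted p = 0.00292), and Birc5 had 55.5, 54.3 and 14.4 CPM in VIL, against 165, 173 and 147 CPM in MG_Control (log2 fold change -2.004, SE 0.41, edgeR adjusted p = 0.00395). Kif4 had 23.0, 21.0 and 5.03 CPM in VIL, against 52.8, 51.8 and 68.9 CPM in MG_Control (log2 fold change -1.86, SE 0.44, edgeR adjusted p = 0.00763), and Cenpa had 49.1, 50.5 and 22.0 CPM in VIL, against 138, 145 and 128 CPM in MG_Control (log2 fold change -1.79, SE 0.28, edgeR adjusted p = 9.87e-04). The groups did not overlap in any of these 4. Ckap2 (log2 fold change -0.47, 95% interval -0.92 to -0.02, edgeR adjusted p = 0.117), Kif23 (log2 fold change -0.49, 95% interval -0.93 to -0.05, edgeR adjusted p = 0.102) and Anln (log2 fold change -0.52, 95% interval -0.96 to -0.08, edgeR adjusted p = 0.0836) were the 3 genes not called. Their intervals, built with a normal quantile, all lie below 0 but are narrower than those of the test. At an unadjusted p under 0.05, only 37 of the 39 genes were lower. With VIL 1 as the only villus-derived library 35 were called lower. Here the source of the cells, the gel and the medium all differ and cannot be told apart.

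Of the other lists, VIL was lower than COL_cWRNE for 12 of 73 further mitotic genes, 3 of 15 regulators, 1 of 11 DREAM and MYB-MuvB genes, Mybl2 at -1.11 ± 0.29 (SE, edgeR adjusted p = 0.0459), and 1 of 24 S phase genes, Gins1, a helicase subunit, at -1.05 ± 0.23 (SE, edgeR adjusted p = 0.0275). No gene of these lists was called higher. Plk4, the kinase of centriole duplication, was lower (log2 fold change -1.27, SE 0.25, edgeR adjusted p = 0.0182), as were Pkmyt1 and Wee1, which encode the kinases that inhibit CDK1 (-1.04 ± 0.21 and -0.79 ± 0.17, SE, edgeR adjusted p = 0.0174 and 0.0231). Cdkn1a had 506, 434 and 687 CPM in VIL, against 407, 348 and 301 CPM in COL_cWRNE, with a log2 fold change of 0.63 (95% interval 0.12 to 1.14, edgeR adjusted p = 0.194). The S phase genes all had negative log2 fold changes, with a median of -0.77.

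In crypt-derived organoids in collagen, cWRNE medium was set against ENRW medium, COL_cWRNE against COL_Control. All 39 genes had negative log2 fold changes, with a median of -0.50 against 0.00 over the 17708 genes tested, but 2 were called lower and 37 were not called, where 4.85% of all genes tested were called lower and 13.1% higher. Every COL_cWRNE library lay below every COL_Control library for 32 of the 39 genes, as for 17.0% of all genes tested. At an unadjusted p under 0.05, 15 were lower, a count whose share over all genes is not given here. DESeq2 called 8 lower, and 1357 lower over all genes, beside 859 over all genes in the main fit. Bub1 had 54.2, 55.8 and 71.2 CPM in COL_cWRNE, against 97.9, 106 and 101 CPM in COL_Control (log2 fold change -0.75, SE 0.23, edgeR adjusted p = 0.0291), and Incenp had 79.0, 72.5 and 79.2 CPM in COL_cWRNE, against 115, 111 and 99.4 CPM in COL_Control (log2 fold change -0.50, SE 0.16, edgeR adjusted p = 0.0419). Neither gene's groups overlapped. With these 2 groups alone in the fit 24 of the 39 genes were called lower, and the share over all genes there is not given here. With library totals 12 were called lower, while the genes called lower over the whole table went from 859 to 1966. The median over all genes was then -0.16. The median of the 39 genes relative to it was -0.51, beside -0.50 in the main fit. With the replicate number as a block 1 gene was called, Bub1 at -0.75 (edgeR adjusted p = 0.0324), and Incenp had -0.50 (adjusted p = 0.0567). Mki67 had 94.97, 80.2 and 129 CPM in COL_cWRNE, against 176, 146 and 149 CPM in COL_Control (log2 fold change -0.63, SE 0.27, edgeR adjusted p = 0.122), and Foxm1 had 41.6, 40.9 and 55.2 CPM in COL_cWRNE, against 78.0, 68.7 and 70.5 CPM in COL_Control (log2 fold change -0.66, SE 0.26, edgeR adjusted p = 0.0874). The groups did not overlap for either. Prc1 (log2 fold change -0.11, 95% interval -0.49 to 0.28, edgeR adjusted p = 0.76) and Bub3 (log2 fold change -0.14, 95% interval -0.35 to 0.08, edgeR adjusted p = 0.439) differed least. Without COL_Control 3 the count was 0, as it was without each other library of these groups except COL_cWRNE 3, which left 1. Of 73 further mitotic genes 13 were lower, and of 24 S phase genes 7 were lower, with 0 higher in either list. Of 15 regulators of G2 entry 2 were lower and 5 higher, and of 11 DREAM and MYB-MuvB genes 2 were lower and 0 higher. Without COL_Control 3 these lists had 5, 3, 1 and 0 genes lower, and the 5 regulators higher.

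Against Matrigel, COL_cWRNE against MG_Control, 1 of the 39 genes was called lower, Incenp, and 38 were not called, where 13.1% of all genes tested were called lower and 20.1% higher. Incenp had 79.0, 72.5 and 79.2 CPM in COL_cWRNE, against 109.9, 116 and 129 CPM in MG_Control (log2 fold change -0.67, SE 0.19, edgeR adjusted p = 0.0244), and this call was lost when any of the 6 libraries was left out. The median was -0.41 over the 39 genes and -0.01 over all genes. All COL_cWRNE libraries lay below all MG_Control libraries for 24 of the 39 genes, as for 24.6% of all genes tested. At an unadjusted p under 0.05, 7 were lower, a count whose share over all genes is not given here. DESeq2 called 6 lower, and 2929 lower over all genes, beside 2192 over all genes in the main fit. Ckap2 (log2 fold change -0.02, 95% interval -0.47 to 0.42, edgeR adjusted p = 0.958) and Prc1 (log2 fold change 0.06, 95% interval -0.42 to 0.53, edgeR adjusted p = 0.884) differed least, and Kif11 (log2 fold change -1.04, 95% interval -1.78 to -0.30, edgeR adjusted p = 0.0586) and Birc5 (log2 fold change -1.05, 95% interval -1.84 to -0.26, edgeR adjusted p = 0.0704) had the lowest log2 fold changes. With these 2 groups alone in the fit, 26 of the 39 genes were called, 25 lower and 1 higher. The share over all genes in that fit is not given here.

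The genes were last described by the motifs in their promoters. In Matrigel the 28 genes with a CHR-type motif had a median log2 fold change of -0.89 with 5-FU (22 called lower, 1 higher), and the 4 genes without had -1.10 (4 called lower). In collagen the medians were -0.60 and -0.51 for the same genes, and in VIL against COL_cWRNE they were -0.97 and -0.95. Mki67 and Ube2c, whose promoter stretches shown above both hold CHR-type and CCAAT letters, had log2 fold changes with 5-FU of -1.40 and 0.18 in Matrigel and -1.46 and 0.61 in collagen.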

How the data were processed

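PolyA RNA was sequenced from libraries of the SMART-Seq mRNA kit, finished with Nextera XT, per the labels' protocols. The authors deposited 1 table with estimated counts and TPM per gene for all 18 libraries, per the file headers. The tools bcl2fastq 2.20 and DRAGEN and the build GRCm39 (mm39) are named per the submitters' processing notes. The gene annotation and the counting step are not given in the sources used here. Identifiers were matched to symbols (52081 matched, 3333 did not).

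Estimated counts, 67.8% of the nonzero ones whole as deposited, were rounded. Quasi-likelihood models of edgeR 4.0.16 under R 4.3.3 were fitted to all genes kept by filterByExpr (count 10, total 15), with TMM scaling. Calls are genes whose Benjamini-Hochberg adjusted p, over the whole table, is under 0.05. The 5-FU and gel comparisons shared a fit of 12 libraries, and those of VIL, COL_cWRNE and MG_Control a fit of 9; COL_cWRNE against COL_Control used all 18. The SE of a log2 fold change was taken from its F statistic. All intervals given were built from that SE with a normal quantile and not from the distribution of the test. They are narrower than intervals of the test would be, and they do not decide a call. CPM were scaled by TMM over the 18 libraries.

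The 39 genes, the other lists, the tests and the alternatives were chosen with earlier results of these data known. Values in every library were given for Mki67, Top2a, Ccnb1, Cdk1, Plk1, Aurkb, Bub1b, Cdc20, Foxm1 and Bub3, and per comparison for up to 4 called genes with the largest change in each direction and the 2 with the smallest. Of the other lists up to 4 genes with the smallest adjusted p were eligible, with Cdkn1a; Pimreg, Lin52, Mcm5, Wee1 and others that stand beside a count were named after their values were seen.

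Replicates with the same number deviated together, with correlations of 0.319 to 0.542 for 5-FU in Matrigel, 0.195 to 0.415 for 5-FU in collagen, 0.118 to 0.271 for COL_Control and MG_Control, 0.112 to 0.254 for COL_cWRNE and MG_Control, and 0.181 to 0.314 for COL_cWRNE and COL_Control, so these were taken as paired by number. The main fits used the group only and left this pairing out, so their calls, SE and adjusted p are those of unpaired tests. Only the replicate block took the pairing in. No pair of replicates agreed within sampling noise (lowest chi-square per degree of freedom 11.3). Alternatives were RLE size factors, library totals, 2 other filters, a threshold of 1 on the absolute log2 fold change, DESeq2 1.42.0, limma 3.58.1 on log2(TPM + 1) with at least 1 TPM in 3 libraries, other sets of libraries in the fit, a replicate block, and leaving out each library. The block for all 39 genes, and the other lists without COL_Control 3, were added after the data were seen.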

Additional observations from a re-analysis of the deposited data

Results flagged for a closer look

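The effect of 5-FU in collagen minus that in Matrigel passed the test of the difference for 3 of the 39 genes, all with the smaller fall in collagen. It was 0.62 for Mad2l1, with log2 fold changes of -0.49 in collagen and -1.11 in Matrigel (edgeR adjusted p = 0.0215). For Nusap1 it was 0.64, with -0.53 in collagen and -1.18 in Matrigel (edgeR adjusted p = 0.04). For Incenp it was 0.64 as well, with -0.47 in collagen and -1.11 in Matrigel (edgeR adjusted p = 0.0397). Of 20 alternatives, 3 ended the call for Mad2l1, 10 that for Nusap1 and 9 that for Incenp. For each of the 3 genes, without COL_Control 3, the library with both Xist and Y-linked transcripts, the difference did not pass.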

How the results depend on the processing

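Over 131 pairs of a named gene and a comparison and 1991 alternative values, 1805 stayed on their side of the threshold, 87 lost a call, 98 gained one and 1 was called with the opposite sign; of 58 pairs called, 38 stayed called throughout. Among the 1805, 69 values of 16 pairs, none of them called, had the opposite sign to their main value and were at most 0.29 in size. The called one was Cdc20 in COL_5FU against MG_5FU, 0.37 with limma on TPM (adjusted p = 0.0147) against -0.01. Library totals moved the median of all genes from 0.06 to -0.09 for 5-FU in Matrigel, from -0.03 to -0.13 in collagen and from 0.00 to -0.16 for COL_cWRNE against COL_Control, while the median of the 39 genes relative to it stayed at -1.05, -0.58 and -0.50 to -0.51. The share of called genes that were higher, over all genes, was 62.2% with TMM and 44.6% with library totals for 5-FU in Matrigel, 52.8% and 41.7% in collagen, 47.8% and 60.4% for COL_5FU against MG_5FU, and 73.0% and 45.2% for COL_cWRNE against COL_Control. For the interaction it was 23.0%, against 33.7% with RLE size factors, 33.0% with library totals and 38.04% with DESeq2. With TMM it was 50.7% for COL_Control against MG_Control and 74.4% for VIL against COL_cWRNE. With limma on TPM it was 28.2%, 40.2%, 57.8%, 72.8%, 80.5%, 54.0% and 51.4% for 5-FU in Matrigel, in collagen, their interaction, COL_Control against MG_Control, COL_5FU against MG_5FU, VIL against COL_cWRNE and COL_cWRNE against COL_Control.

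Counts of the 39 genes called, in the order of 5-FU in Matrigel (34), 5-FU in collagen (29), interaction (3), COL_Control against MG_Control (5), COL_5FU against MG_5FU (21), VIL against COL_cWRNE (9), VIL against MG_Control (36), COL_cWRNE against MG_Control (1) and COL_cWRNE against COL_Control (2), ranged over left-out libraries from 32 to 35, 24 to 33, 0 to 7, 3 to 6, 14 to 26, 0 to 25, 31 to 37, 0 to 0 and 0 to 1. When called genes also had to pass a log2 fold change of 1 in size they were 19, 5, 0, 0, 1, 3, 32, 0 and 0. Other counts that moved by over 1.5 times follow, and the cause was not tested. For the interaction they were 6 with RLE size factors and with DESeq2, 9 with no filter beyond 1 count, 5 with limma on TPM and 0 with all 18 libraries in one fit. COL_Control against MG_Control gave 9 with library totals and at 10 CPM in 3 libraries, 10 with limma on TPM, 3 with all 18 libraries and 8 with only the groups compared. 5-FU in collagen gave 17 with all 18 libraries. COL_5FU against MG_5FU gave 36 with limma on TPM and 8 with all 18 libraries. VIL against COL_cWRNE gave 23 with no filter, 24 with DESeq2, 20 with limma on TPM, 34 with all 18 libraries, 2 with the replicate block and 0 with only the groups compared. COL_cWRNE against MG_Control gave 2 with RLE size factors, 3 with library totals, no filter and 10 CPM, 6 with DESeq2, 8 with all 18 libraries and 26 with only the groups compared. COL_cWRNE against COL_Control gave 12 with library totals, 9 at 10 CPM and with limma on TPM, 8 with DESeq2, 24 with only the groups compared and 1 with the replicate block. Where the numbers pair the libraries, the block changed 1 call of the 39 genes beyond those given beside the results. It added a call of Kif4 in COL_5FU against MG_5FU (0.66, edgeR adjusted p = 0.0198). The correlations of these 2 groups were 0.184, 0.424 and 0.0864. They are paired by number through their untreated groups, which were taken as paired with them and with each other. For VIL the numbers do not pair all libraries (correlations with COL_cWRNE of 0.212, 0.223 and -0.122). There the block left the calls of Cenpa and Cdca8 and ended the other 7. Under the main filter all 39 genes were tested in every comparison.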
